A study of Mus musculus with 8 samples.

Results

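The genes described here are 10 regulators of the G1 phase of the cell cycle: the CDK inhibitors Cdkn1a, Cdkn1b and Cdkn2c, the D-type cyclins Ccnd2 and Ccnd3, their kinases Cdk4 and Cdk6, and the growth-arrest genes Gadd45a, Gadd45b and Gadd45g. They were taken by symbol, as every probe set of the array that is annotated to one of these symbols alone, which gave 26 of 45101 probe sets and 10 of 18193 genes. Each gene was represented by its probe set with the highest mean log2 signal over the 8 arrays, and its other probe sets are described after it. The samples were CD4 T cells of the mouse, taken from spleens at 8 weeks of age by magnetic sorting and stimulated for 15 h with antibodies to CD3 and CD28. There were 4 groups of 2 arrays: cells lacking the interferon-gamma receptor chain IFN-gR1 (KO) that had db-cAMP during the last 3 h, KO cells with vehicle, wild-type (WT) cells with db-cAMP, and WT cells with vehicle. Db-cAMP (dibutyryl cyclic AMP) is a membrane-permeable analogue of cyclic AMP. The stimulation was shared by all groups, so no array shows resting cells. The titles number the 2 arrays of a group as biological replicates without naming separate animals or cultures, so p-values here cover only the array-to-array spread, which may be technical.

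D-type cyclins bind CDK4 and CDK6, and the active kinases phosphorylate the retinoblastoma protein, which frees E2F factors to switch on genes of DNA replication. INK4 inhibitors such as p18INK4c (Cdkn2c) bind CDK4 and CDK6 directly, whereas p21 (Cdkn1a) and p27 (Cdkn1b) bind whole cyclin-CDK complexes. In T cells p27 is abundant at rest and is lost as the antigen receptor and CD28 drive cells into the cycle, and cyclic AMP is known to oppose this step through protein kinase A. GADD45 proteins are small stress-induced proteins that bind PCNA, p21 and the kinase MEKK4, and Gadd45b and Gadd45g are known in T cells for p38 signalling and interferon-gamma production.

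All arrays had been scaled to the same trimmed mean, and their median signals lay between 56.2 and 70.5. The 2 arrays of a group correlated at 0.961 to 0.977 in log2 signal, as a description over the genes tested. A free-text description on the KO arrays calls the cells wild type, whereas their titles, source names and genotype fields give the knockout. Interferon-gamma target genes bear on this: Gbp2 averaged 642 in KO db-cAMP cells, 432 in KO vehicle cells, 25021 in WT db-cAMP cells and 7532 in WT vehicle cells. The targeted gene itself was not absent: Ifngr1 averaged 1164 in KO db-cAMP cells and 408 in KO vehicle cells, and 7760 in WT db-cAMP cells against 889 in WT vehicle cells, so KO db-cAMP cells lay above WT vehicle cells. Whether its probe set lies in the deleted part was not examined here. The genotype field was followed. The CD4 T cell marker list summed to 91880 to 104731 over the arrays, while Cd4 itself was between 253 and 539. The spike-in poly-A controls averaged 4872 and 5834 on the KO db-cAMP arrays, 4159 and 4645 on the KO vehicle arrays, 1779 and 2148 on the WT db-cAMP arrays and 1441 and 1636 on the WT vehicle arrays. They were therefore higher on every KO array than on every WT array, and so was the 3′ to 5′ signal ratio of 18S RNA (0.513 to 0.623 in KO, 0.353 to 0.441 in WT) and of Gapdh (0.779 to 0.850 in KO, 0.734 to 0.769 in WT), while that of Actb was lower (1.34 to 1.44 in KO, 1.46 to 1.72 in WT). The 18S signal was higher on every db-cAMP array (31397 to 38701) than on every vehicle array (24553 to 28575). The part of these control signals in the comparisons below was not tested. In RNA from whole cultures, fewer cells of a type and less RNA per cell cannot be told apart, and because each array was scaled to one mean, a change in total mRNA was not measured.

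Promoter windows from RefSeq (GRCm38.p6) were found for 9 of the 10 genes. Ccnd2 had no window, so no motif was searched for it and the counts below do not cover it. The 250 bases before the annotated start are shown for the 4 genes whose signal changed with db-cAMP in both genotypes, all on the plus strand and written 5′ to 3′. Capitals mark matches, on either strand, to the motifs that were searched and occur in these bases: CCAAT, the GC box GGGCGG, the E-box CACGTG and the short CRE core TGACG.
Cdkn1b chr6:134920151-134920400: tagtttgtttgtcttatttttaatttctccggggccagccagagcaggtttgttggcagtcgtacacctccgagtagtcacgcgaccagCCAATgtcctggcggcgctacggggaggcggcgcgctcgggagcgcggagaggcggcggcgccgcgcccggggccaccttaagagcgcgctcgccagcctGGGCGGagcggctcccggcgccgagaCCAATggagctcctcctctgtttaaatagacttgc
Cdk4 chr10:127063285-127063534: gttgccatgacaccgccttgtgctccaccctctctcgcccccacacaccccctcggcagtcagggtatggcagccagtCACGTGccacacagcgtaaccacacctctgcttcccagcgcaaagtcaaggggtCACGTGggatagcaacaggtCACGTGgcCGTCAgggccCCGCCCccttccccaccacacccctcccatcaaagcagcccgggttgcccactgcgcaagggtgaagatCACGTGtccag
Cdk6 chr5:3343643-3343892: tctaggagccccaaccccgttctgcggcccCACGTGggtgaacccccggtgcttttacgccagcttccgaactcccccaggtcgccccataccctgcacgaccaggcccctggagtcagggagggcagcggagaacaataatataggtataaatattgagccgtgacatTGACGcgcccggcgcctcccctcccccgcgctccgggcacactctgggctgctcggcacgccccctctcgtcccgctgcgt
Gadd45b chr10:80929841-80930090: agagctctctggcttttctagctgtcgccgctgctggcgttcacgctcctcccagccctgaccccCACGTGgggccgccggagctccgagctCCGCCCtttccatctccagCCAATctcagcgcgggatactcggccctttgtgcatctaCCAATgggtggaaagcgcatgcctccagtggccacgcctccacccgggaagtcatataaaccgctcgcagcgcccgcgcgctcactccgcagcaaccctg

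The bases shown for Cdkn1b, which rose with db-cAMP, hold CCAAT boxes and a GC box, and those of Gadd45b, which also rose, hold both of these and 1 E-box. The bases of Cdk4, which fell, hold 4 E-boxes, a GC box and a TGACG core on the minus strand at position -90 from the start. The bases of Cdk6, which also fell, hold 1 E-box and a TGACG core at -81. Past the start, the 300-base windows of RefSeq hold a further TGACG core (at 22) and CCAAT box (at 46) of Cdkn1b and further GC boxes (at 13 and 18) of Cdk4. Among all 32851 windows of 300 bases (250 before to 50 after the start), 7.15% held CACGTG, 20.8% TGACG, 35.7% GGGCGG and 37.4% CCAAT. The full CRE TGACGTCA, which contains the TGACG core and through which CREB responds to cyclic AMP, was in 1.79% of all windows and in none of the windows of these genes. The interferon-gamma activated site TTCNNNGAA was in 8.3% of all windows and in none of these, and the E2F sites TTTCGCGC or TTTGGCGC in 0.813% and in none. A forkhead match, TGTTTAC, was in 3.65% of all windows and, among these genes, in 1 window of Ccnd3. A match describes letters in the window and not a bound site, and no match says only that the letters are not there.

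With db-cAMP, against vehicle, the inhibitor Cdkn1b and the growth-arrest gene Gadd45b rose and the kinases Cdk4 and Cdk6 fell in KO cells. That makes 4 of the 10 genes at an adjusted p under 0.05 in limma (Benjamini-Hochberg over 12091 genes), in a comparison where 8.38% of all genes were called, 4.7% higher and 3.68% lower. In WT cells 7 of the 10 changed: Cdkn1b, Cdkn2c, Gadd45a and Gadd45b rose, and Ccnd2, Cdk4 and Cdk6 fell. Of all genes tested, 35% were called in WT cells, 16.4% higher and 18.6% lower. The median log2 change of the 10 genes was -0.015 in KO cells and 0.12 in WT cells, and that of all genes -0.004 in KO cells and 0.01 in WT cells. By size, 0 of the 10 genes were called with a change of 2-fold or more in KO cells and 4 were in WT cells. The largest of the 10 changes in KO cells was that of Cdkn1b, and 7.57% of all genes tested moved further there. The smallest of the 4 in WT cells was that of Cdk6, and 13.1% of all genes tested moved further there. All 4 calls in KO cells were lost when limma's variance was modelled without a trend on signal (adjusted p 0.054 to 0.208), and those of Cdkn1b (0.439), Gadd45b (0.33) and Cdk6 (0.15) when the probe sets of a gene were averaged. The 7 calls in WT cells held under every alternative setting run.

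**Figure D1:**
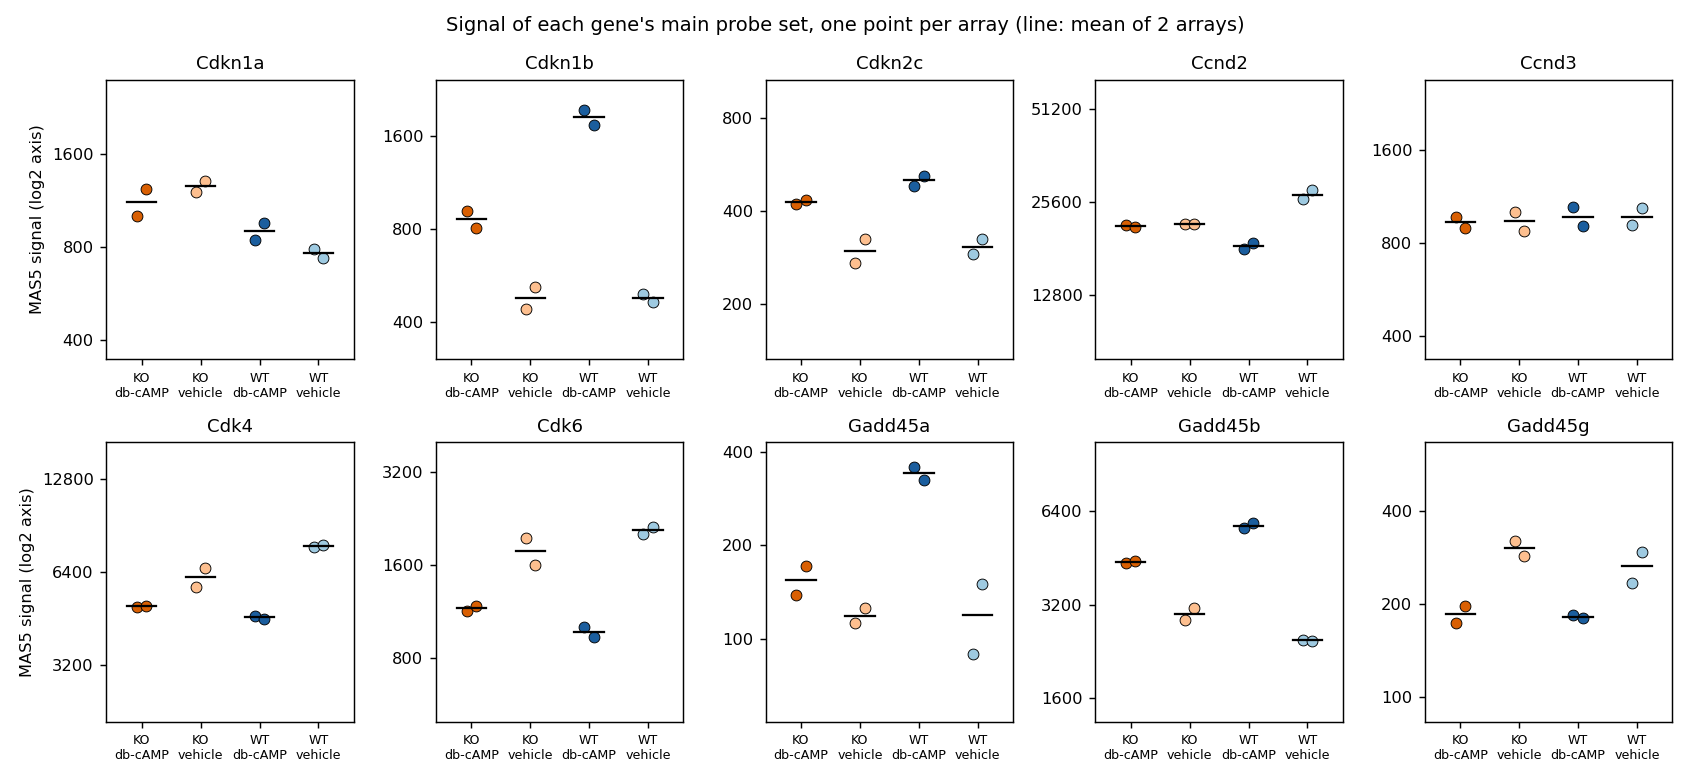
Signal of the probe set that represents each gene, on a log2 axis (deposited array signal, 1 point per array, line at the mean of 2 arrays), in KO db-cAMP, KO vehicle, WT db-cAMP and WT vehicle cells from left to right. Cdkn1b lies at 1743 and 1937 on the WT db-cAMP arrays and at 916 or less on the 6 others, and Ccnd2 is highest on the WT vehicle arrays.

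Of the inhibitors, Cdkn1b (p27, probe set 1434045_at) had the largest change. Its signal was 916 and 806 in KO db-cAMP cells and 441 and 521 in KO vehicle cells, and 1937 and 1743 in WT db-cAMP cells against 492 and 465 in WT vehicle cells. The db-cAMP arrays lay above the vehicle arrays in both genotypes with no overlap, and the vehicle arrays of the 2 genotypes overlapped. Here and below, the share of all genes whose groups did not overlap was not counted. In KO cells Cdkn1b rose 1.78-fold with db-cAMP (log2 change 0.84 ± 0.13, SE, 2 arrays a group; limma adjusted p = 0.000984). In WT cells it rose 3.81-fold (1.93 ± 0.13, adjusted p = 7.22e-08), and 2.64% of the genes tested moved further there in either direction. Its other probe set, 1419497_at, was dim, at 77.0 and 52.3 in KO db-cAMP cells, 39.8 and 80.3 in KO vehicle cells, 105 and 92.3 in WT db-cAMP cells and 42.8 and 20.7 in WT vehicle cells. Its KO groups overlapped, and the change of 1.55 in WT cells did not pass (adjusted p = 0.060).

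Cdkn2c (p18INK4c, 1416868_at) was at 422 and 434 in KO db-cAMP cells and 272 and 325 in KO vehicle cells, and at 484 and 522 in WT db-cAMP cells against 291 and 325 in WT vehicle cells. All 4 db-cAMP arrays lay above all 4 vehicle arrays. In KO cells the log2 change of 0.52 ± 0.16 did not pass (SE; limma adjusted p = 0.0743). The gene rose 1.63-fold in WT cells (0.70 ± 0.16, adjusted p = 0.00423).

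Cdkn1a (p21, an inhibitor that p53 induces) did not pass for db-cAMP in either genotype on its brighter probe set, 1424638_at. The signal there was 1003 and 1228 in KO db-cAMP cells and 1203 and 1304 in KO vehicle cells, and 841 and 954 in WT db-cAMP cells against 786 and 738 in WT vehicle cells. The KO groups overlapped, and the WT db-cAMP arrays lay just above the WT vehicle arrays. The 95% interval of the log2 change in WT cells was -0.03 to 0.50. The dimmer probe set 1421679_a_at read 1051 and 964 in KO db-cAMP cells, 1025 and 1156 in KO vehicle cells, 546 and 577 in WT db-cAMP cells and 321 and 438 in WT vehicle cells. On it the KO change of -0.11 did not pass (limma adjusted p = 0.809 over 26527 probe sets). In WT cells it rose by 0.58 ± 0.15 on the log2 scale (SE, adjusted p = 0.0123), where 12.6% of probe sets rose and 26% were called in either direction. The mean of the Cdkn1a probe sets gave 0.404 in WT cells, which passed (limma adjusted p = 0.0237).

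Among the cyclins, Ccnd2 had no called change in KO cells and fell in WT cells. The representing probe set, 1416122_at, read 21578 and 21234 in KO db-cAMP cells and 21722 and 21846 in KO vehicle cells, and 18099 and 18937 in WT db-cAMP cells against 26131 and 28056 in WT vehicle cells. The WT vehicle arrays were the highest and the WT db-cAMP arrays the lowest, with all KO arrays between them. The log2 change was -0.03 ± 0.07 in KO cells (SE; limma adjusted p = 0.897; 95% interval -0.17 to 0.12) and -0.55 ± 0.07 in WT cells (adjusted p = 1.97e-05). In KO cells 0 of the 7 Ccnd2 probe sets were called by limma, where 4.79% of all probe sets were, with changes from -0.06 to 0.08. All 7 fell in WT cells, by 0.53 to 0.81 on the log2 scale, where 13.4% of all probe sets fell.

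Ccnd3, the other D cyclin of lymphocytes, did not pass in either genotype. Its probe set 1415907_at read 974 and 898 in KO db-cAMP cells, 1008 and 873 in KO vehicle cells, 1045 and 907 in WT db-cAMP cells and 914 and 1037 in WT vehicle cells. All 4 groups overlapped. The 95% interval of the log2 change was -0.27 to 0.26 in KO cells and -0.26 to 0.26 in WT cells. On 1438805_at the groups of each genotype did not overlap, though in KO cells the nearest arrays were all but equal, at 538.6 with db-cAMP and 538.2 with vehicle. It read 539 and 776 in KO db-cAMP cells against 535 and 538 in KO vehicle cells. In WT cells it read 322 and 349 with db-cAMP against 479 and 400 with vehicle. Neither the KO change of 0.27 (limma adjusted p = 0.536 over the probe sets) nor the WT change of -0.38 (adjusted p = 0.147) passed. A dim probe set of Ccnd3, 1444323_at, read 98.7 and 60.2 in KO db-cAMP cells, 29.4 and 63.8 in KO vehicle cells, 12.6 and 21.2 in WT db-cAMP cells and 22.7 and 77.3 in WT vehicle cells, and was not called in either genotype.

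The kinases fell in both genotypes. Cdk6 (1435338_at) read 1137 and 1180 in KO db-cAMP cells and 1953 and 1598 in KO vehicle cells, and 1009 and 934 in WT db-cAMP cells against 2020 and 2122 in WT vehicle cells. The db-cAMP and vehicle arrays did not overlap in either genotype. Cdk6 fell by 0.61 ± 0.11 on the log2 scale in KO cells (SE; limma adjusted p = 0.00295) and by 1.09 ± 0.11 in WT cells (adjusted p = 3.29e-06). A second probe set of the gene, 1455287_at, read 1022 and 958 in KO db-cAMP cells, 1514 and 1330 in KO vehicle cells, 442 and 357 in WT db-cAMP cells and 1044 and 1523 in WT vehicle cells. There the KO change of -0.52 did not pass (adjusted p = 0.109 over the probe sets), and the WT change was -1.65 ± 0.17 (adjusted p = 7.21e-06). The last Cdk6 probe set, 1460291_at, was dim, at 35.4 and 42.4 in KO db-cAMP cells, 85.6 and 84.4 in KO vehicle cells, 63.9 and 20.9 in WT db-cAMP cells and 79.5 and 11.7 in WT vehicle cells. Its WT groups overlapped, and neither the KO change of -1.03 nor the WT change of 0.16 passed.

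Cdk4 (1422441_x_at) read 4927 and 4986 in KO db-cAMP cells and 5709 and 6609 in KO vehicle cells, and 4627 and 4510 in WT db-cAMP cells against 7705 and 7820 in WT vehicle cells. It fell by 0.31 ± 0.08 on the log2 scale in KO cells (SE; limma adjusted p = 0.0273) and by 0.76 ± 0.08 in WT cells (adjusted p = 4.48e-06). The KO call was lost when KO db-cAMP array 1 (adjusted p = 0.16), KO db-cAMP array 2 (0.137) or KO vehicle array 2 (0.249) was left out. The groups of each genotype did not overlap. The 3 Cdk4 probe sets changed by -0.35 to -0.26 in KO cells and by -0.82 to -0.72 in WT cells.

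Of the GADD45 genes, Gadd45b moved in both genotypes. Its probe set 1450971_at read 4368 and 4423 in KO db-cAMP cells and 2843 and 3128 in KO vehicle cells, and 5639 and 5854 in WT db-cAMP cells against 2459 and 2444 in WT vehicle cells. No 2 groups overlapped, and the order from high to low was WT db-cAMP, KO db-cAMP, KO vehicle, WT vehicle. Gadd45b rose 1.47-fold in KO cells (log2 change 0.56 ± 0.08, SE; limma adjusted p = 0.000399) and 2.34-fold in WT cells (1.23 ± 0.08, adjusted p = 3.83e-08). The probe set 1449773_s_at gave 0.46 in KO cells and 1.35 in WT cells. A dim one, 1420197_at, did not pass in KO cells (-0.39, adjusted p = 0.534) or in WT cells (0.68, adjusted p = 0.0719).

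Gadd45a (1449519_at) read 138 and 172 in KO db-cAMP cells and 112 and 125 in KO vehicle cells, and 360 and 326 in WT db-cAMP cells against 89.2 and 150 in WT vehicle cells. The WT db-cAMP arrays stood above all 6 others. The KO log2 change of 0.37 ± 0.29 did not pass (SE; limma adjusted p = 0.559), and the gene rose 2.87-fold in WT cells (1.52 ± 0.29, adjusted p = 0.001). Gadd45g (1453851_a_at) ran the other way, at 174 and 198 in KO db-cAMP cells and 320 and 286 in KO vehicle cells, and 185 and 180 in WT db-cAMP cells against 234 and 296 in WT vehicle cells. Its db-cAMP arrays lay below its vehicle arrays in both genotypes, yet the log2 changes of -0.69 ± 0.22 in KO cells (adjusted p = 0.0698) and -0.52 ± 0.22 in WT cells (adjusted p = 0.0818) did not pass. The KO change passed under 4 of 20 alternative settings (lowest limma adjusted p = 0.0412). The WT change passed under 1 of 20, quantile normalization (adjusted p = 0.0451).

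**Figure D2:**
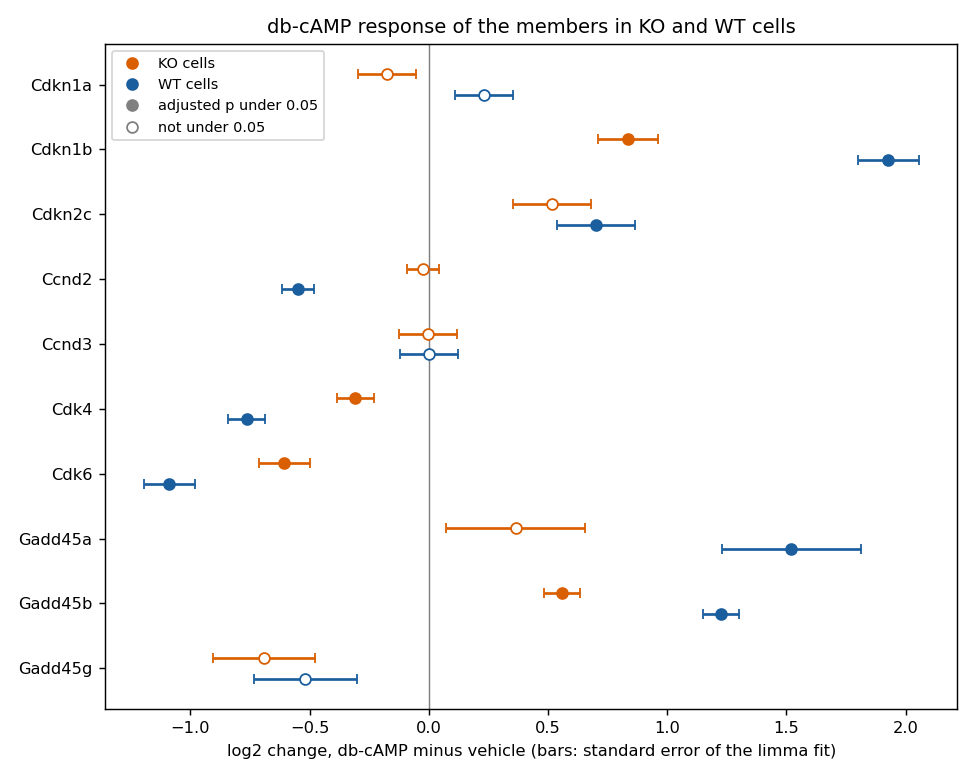
Log2 change with db-cAMP over vehicle for the 10 genes, with KO above WT for each gene (limma, bars are standard errors, 2 arrays a group, filled points have an adjusted p under 0.05). In WT cells Cdkn1b is farthest to the right at 1.93 and Cdk6 farthest to the left at -1.09, and the KO point is nearer 0 for 8 of the 10 genes.

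The genotype difference of the db-cAMP response was tested as an interaction. It passed for 4 of the 10 genes, where 11.8% of all genes passed (6.7% in the direction of a higher KO change and 5.09% of a lower one). For Cdkn1b the KO change minus the WT change was -1.09 ± 0.18 on the log2 scale (SE; limma adjusted p = 0.0015), and for Gadd45b -0.67 ± 0.11 (adjusted p = 0.00131). For Ccnd2 it was 0.52 ± 0.09 (adjusted p = 0.00258) and for Cdk4 0.455 ± 0.11 (adjusted p = 0.0169). Of the other Cdk4 probe sets, 1422439_a_at passed at 0.557 (limma adjusted p = 0.00987 over the probe sets). The probe set 1422440_at did not, at 0.371 (adjusted p = 0.103). The Ccnd2 difference passed on all 7 probe sets, at 0.52 to 0.80, where 6.83% of probe sets passed, 3.76% in this direction. Cdk6 gave 0.48 ± 0.15 and did not pass (adjusted p = 0.059), although its second probe set 1455287_at did, at 1.14 ± 0.24 (adjusted p = 0.0111). The dim Cdk6 probe set 1460291_at gave the opposite sign, -1.19 ± 1.12 (adjusted p = 0.63), and the mean of the Cdk6 probe sets gave 0.14 (adjusted p = 0.89). Gadd45a had a difference of -1.16 ± 0.41 with an adjusted p of 0.095. The change was smaller in size in KO cells than in WT cells for 8 of the 10 genes, which is 80%, and for 72.1% of all genes tested. Without the variance trend all 4 calls were lost (adjusted p 0.055 to 0.154), averaging probe sets ended that of Cdkn1b (0.0966), and that of Cdk4 was lost without KO db-cAMP array 1 (0.0581) or 2 (0.0661), KO vehicle array 1 (0.0617) or WT vehicle array 2 (0.0503).

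Between the genotypes under vehicle, Cdkn1a and Gadd45b were higher in KO cells and Ccnd2 and Cdk4 lower on their representing probe sets. These are 4 of 10 genes, where 10.8% of all genes were called, 5.06% higher and 5.78% lower. The same vehicle arrays serve as controls of the db-cAMP comparisons above, so these values are not independent of them. All 4 calls were lost without the variance trend (adjusted p 0.0723 to 0.165). Cdkn1a was 1.64-fold higher in KO vehicle cells than in WT vehicle cells (log2 difference 0.71 ± 0.12, SE; limma adjusted p = 0.00214), and its second probe set gave 1.52 ± 0.15 (adjusted p = 2.71e-05). Gadd45b differed by 0.28 ± 0.08 (adjusted p = 0.0303), a call that was lost after quantile normalization (0.0541), at an equal 75th percentile (0.156), with only the 4 vehicle arrays (0.0701) and when KO vehicle array 2 (0.189), WT vehicle array 1 (0.104), WT vehicle array 2 (0.116), KO db-cAMP array 1 (0.0545) or KO db-cAMP array 2 (0.054) was left out. Cdk4 differed by -0.34 ± 0.08 (adjusted p = 0.0142), and lost the call after quantile normalization (0.0534) and without KO vehicle array 1 (0.131), WT vehicle array 1 (0.0605) or WT vehicle array 2 (0.0762). The Cdk4 probe set 1422439_a_at was lower in KO cells too, by -0.40 (limma adjusted p = 0.00601 over the probe sets). A further one, 1422440_at, did not pass, at -0.07 (limma adjusted p = 0.73). It read 4218 and 4084 in KO vehicle cells and 4706 and 4034 in WT vehicle cells, which overlap. For Cdkn1b the difference was 0.00, with a 95% interval of -0.27 to 0.28.

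The probe sets of Ccnd2 disagreed on the genotype difference under vehicle, although they agreed on the response to db-cAMP. Probe set 1448229_s_at read 16578 and 14752 in KO vehicle cells against 9366 and 9758 in WT vehicle cells, and the probe set 1416123_at 7398 and 6417 in KO vehicle cells against 4168 and 4629 in WT vehicle cells. Both were higher in KO cells with no overlap, by 0.71 (limma adjusted p = 8.19e-05) and 0.65 (adjusted p = 0.00124) on the log2 scale, and 1416124_at was higher by 0.37 (adjusted p = 0.0456). Another 3 were lower in KO cells: 1416122_at by -0.31 (adjusted p = 0.00975), 1430127_a_at by -0.32 (0.0115) and 1455956_x_at by -0.29 (0.0193). The seventh, 1434745_at, differed by -0.16 (adjusted p = 0.207). In this comparison 10.3% of all probe sets were called, 5.64% higher and 4.67% lower, and the positions of the probe sets in the transcript were not used here, so no direction is given for the Ccnd2 gene under vehicle.

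**Figure D3:**
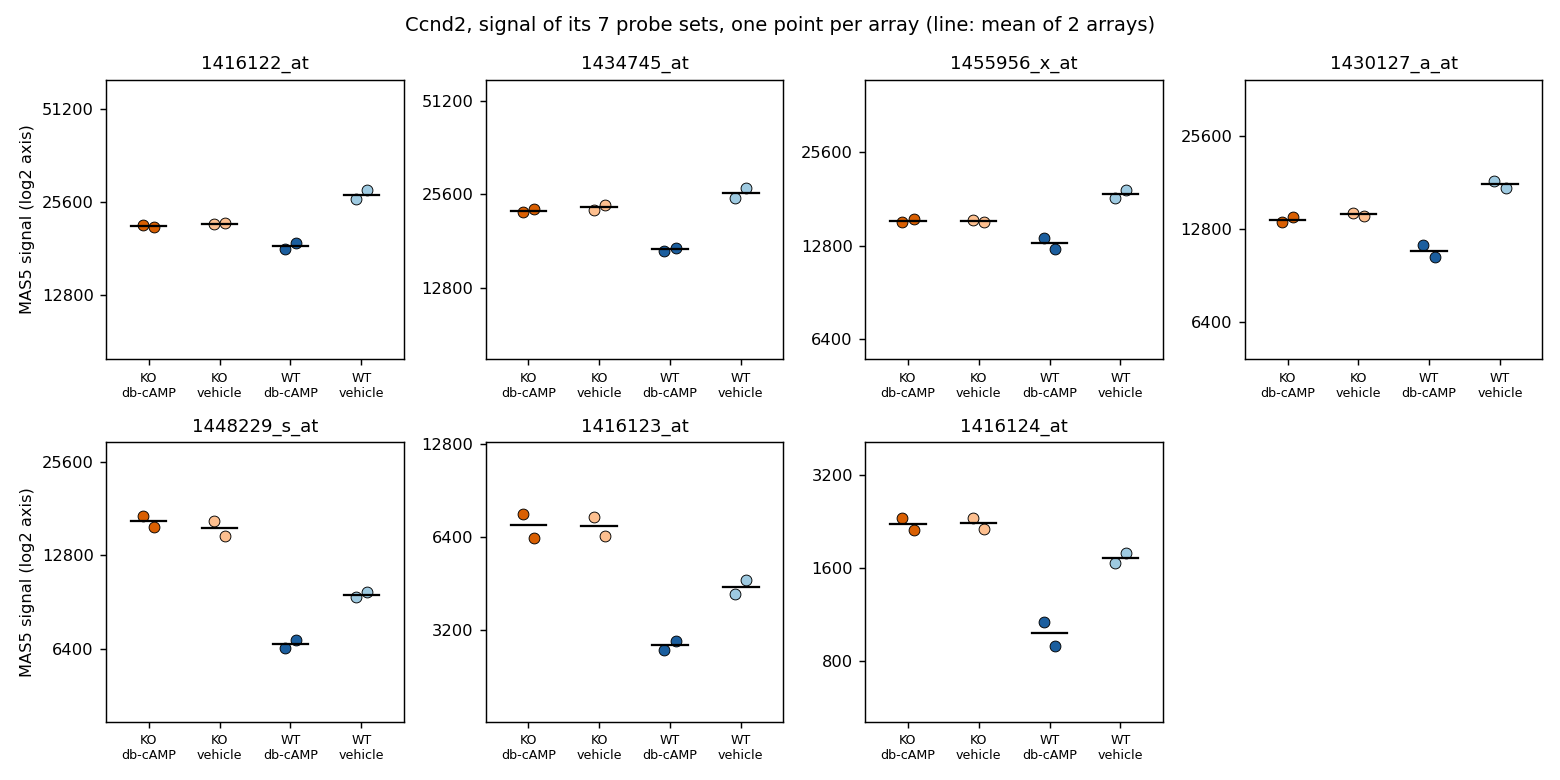
Signal of the 7 Ccnd2 probe sets on a log2 axis (deposited array signal, 1 point per array) in KO db-cAMP, KO vehicle, WT db-cAMP and WT vehicle cells. In every probe set the WT db-cAMP arrays lie below the WT vehicle arrays, while the KO vehicle arrays lie above WT vehicle in 1448229_s_at, 1416123_at and 1416124_at and below it in 1416122_at, 1430127_a_at and 1455956_x_at.

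Between the genotypes under db-cAMP, Cdkn1b, Gadd45a and Gadd45b were lower and Ccnd2 higher in KO cells, which is 4 of 10 genes where 29.2% of all genes were called, 15.9% higher and 13.3% lower. Cdkn1b differed by -1.09 ± 0.13 on the log2 scale (SE; limma adjusted p = 2.67e-05), Gadd45a by -1.12 ± 0.29 (adjusted p = 0.01) and Gadd45b by -0.39 ± 0.08 (adjusted p = 0.00163). The Gadd45a call was lost without KO db-cAMP array 1 (adjusted p = 0.088) or WT db-cAMP array 1 (0.055). All 7 Ccnd2 probe sets were higher in KO db-cAMP cells than in WT db-cAMP cells, by 0.21 to 1.32, where 24.2% of probe sets were called, with 13.9% of all probe sets higher. The Cdkn1b call was lost when its probe sets were averaged (0.0541). The gene-level Ccnd2 call (0.21 ± 0.07, adjusted p = 0.029) was lost at an equal 75th percentile of signal (0.413), without the variance trend (0.14), without the filter on dim genes (0.0624) and without KO db-cAMP array 1 (0.155), KO db-cAMP array 2 (0.115) or WT db-cAMP array 1 (0.124). Other probe sets of 4 genes were called here where the representing ones were not, 1 for each gene and all higher in KO cells. The Cdkn1a probe set 1421679_a_at differed by 0.84 ± 0.15 (adjusted p = 0.00118) and the Cdk6 probe set 1455287_at by 1.31 ± 0.17 (adjusted p = 7.95e-05), and that of Cdk4, 1422440_at, by 0.30 ± 0.09 (adjusted p = 0.0233). That of Ccnd3, 1438805_at, read 539 and 776 in KO db-cAMP cells against 322 and 349 in WT db-cAMP cells, a difference of 0.94 ± 0.18 (adjusted p = 0.0017).

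Of the other G1 to S genes, 30 of 34 were tested; 3 rose and 1 fell in KO cells (median log2 change -0.11; 8.38% of all genes were called), whereas in WT cells 5 rose and 9 fell (46.7%, beside 35% of all genes, median -0.15). Myc, the transcription factor that induces D cyclins and Cdk4, had 5798 and 5756 in KO db-cAMP cells and 8257 and 8370 in KO vehicle cells, and 2448 and 2587 in WT db-cAMP cells against 9547 and 10396 in WT vehicle cells. It fell by 0.53 on the log2 scale in KO cells (limma adjusted p = 0.000421) and by 1.98 ± 0.07 in WT cells (SE; adjusted p = 3.55e-10). Cdkn2d, a further INK4 inhibitor, read 721 and 761 in KO db-cAMP cells and 585 and 507 in KO vehicle cells, and 1103 and 1236 in WT db-cAMP cells against 503 and 502 in WT vehicle cells. It rose by 0.44 in KO cells (adjusted p = 0.0464) and by 1.21 ± 0.13 in WT cells (adjusted p = 4.7e-06), and the difference of the responses was -0.77 (adjusted p = 0.0121). Cdkn1c (p57), the remaining CIP/KIP inhibitor, had a KO change of 0.66 that did not pass (adjusted p = 0.449) and rose by 1.93 in WT cells, where it was dim (adjusted p = 0.0032). The pocket protein genes Rb1 and Rbl2 rose in both genotypes, Rb1 by 0.40 in KO cells and 0.78 in WT cells, and Rbl2 by 0.60 in KO cells and 0.45 in WT cells. Ccnd1, the remaining D cyclin, was dim in all groups, at 37.4 to 94.7 on the 8 arrays, and was not called. Cdk2 did not pass for db-cAMP in WT cells (0.15), and was higher in KO cells than in WT cells under vehicle (0.77, adjusted p = 0.000105). Ccne2, an E-type cyclin that pairs with CDK2, gave a KO minus WT difference of -1.14 under vehicle (adjusted p = 0.0239) and -1.18 under db-cAMP (adjusted p = 0.00778).

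The E2F targets and S-phase genes had 29 of 32 members tested, of which 1 rose and 2 fell in KO cells (beside 8.38% of all genes called), whereas in WT cells 3 rose and 7 fell (34.5%, beside 35% of all genes). Ung, which removes uracil from DNA, fell by 1.34 in WT cells (limma adjusted p = 7.08e-08), Rfc4, a clamp-loader subunit, fell by 0.57, and Slbp, which binds histone mRNA, rose by 0.57. Under vehicle 12 of the 29 were lower and 0 higher in KO cells than in WT cells, with a median of -0.30, where 5.78% of all genes were lower. Mcm10 (-1.16), Rrm2 (-1.10), Cdc6 (-0.90) and Pcna (-0.58), all of DNA replication, were among them and are named after their values were seen.

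**Figure D4:**
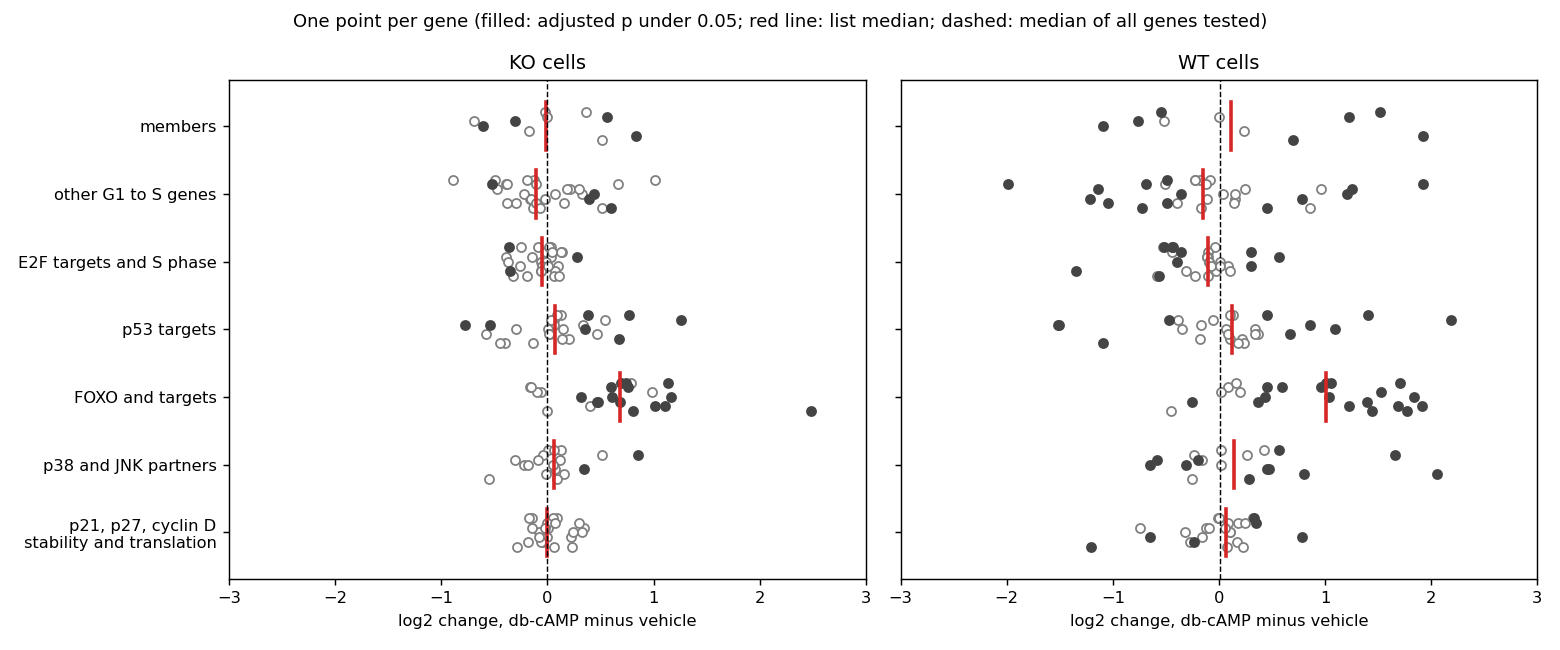
Log2 change with db-cAMP over vehicle of each tested gene in the lists, KO cells in the left panel and WT cells in the right (filled points have a limma adjusted p under 0.05, red marks are list medians, the dashed line is the median of all genes). The FOXO list has its median at 0.68 in KO cells and 1.01 in WT cells, and the other lists have medians between -0.15 and 0.15 in WT cells.

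FOXO factors, which induce Cdkn1b in resting cells, formed a list with their targets in which 15 of 23 tested genes rose and 0 fell in KO cells (65.2%, beside 8.38% of all genes called), whereas in WT cells 17 rose and 1 fell (78.3%, beside 35%). Foxo1 itself read 1649 and 1896 in KO db-cAMP cells and 1092 and 1021 in KO vehicle cells, and 1707 and 1747 in WT db-cAMP cells against 856 and 855 in WT vehicle cells. It rose by 0.74 in KO cells (limma adjusted p = 0.000382) and by 1.01 ± 0.10 in WT cells (adjusted p = 3.37e-06). The homing genes Ccr7, Klf2 and S1pr1 rose by 1.02, 1.17 and 0.81 in KO cells and by 1.92, 1.84 and 1.78 in WT cells. The cyclin gene Ccng2, linked to growth arrest, rose by 1.13 in KO cells and 1.70 in WT cells. Rbl2 is in this list and in the G1 to S list.

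Of the p53 targets other than Cdkn1a and Gadd45a, 26 of 30 were tested, and 5 rose and 2 fell in KO cells (median 0.08; 8.38% of all genes were called), whereas in WT cells 6 rose and 4 fell (38.5%, beside 35% of all genes, median 0.12). Perp and Btg2 rose by 1.26 and 0.77 in KO cells and by 2.19 and 1.41 in WT cells, and Plk3 and Aen fell by 0.78 and 0.54 in KO cells and by 1.51 and 1.52 in WT cells. Under vehicle 4 of the 26 were higher and 0 lower in KO cells than in WT cells, where 5.06% of all genes were higher and 5.78% lower.

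A mixed list was made around GADD45 partners and p38 and JNK signalling, with Ppp2ca, Ddit3, Atf4, Prmt1 and Tdg also in it. Of its genes 18 of 21 were tested, and 2 rose and 0 fell in KO cells (11.1%, beside 8.38% of all genes). In WT cells 7 rose and 4 fell (61.1%, beside 35%, median 0.15). Map3k4, which encodes MEKK4, the GADD45 binding partner, gave 0.00 in KO cells and 0.02 in WT cells and was not called. Map3k5, a stress kinase upstream of p38 and JNK, rose by 0.85 in KO cells and 1.66 in WT cells. Map2k3, a p38 kinase kinase, fell by 0.65 in WT cells, and was higher in KO cells than in WT cells by 1.001 under vehicle and 1.43 under db-cAMP.

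Regulators of the stability and translation of p21, p27 and cyclin D had 24 of 27 members tested, of which 0 were called by limma in KO cells (beside 8.38% of all genes). There 3 had an unadjusted limma p under 0.05, a count that was not made over all genes. In WT cells 3 rose and 3 fell (25%, beside 35% of all genes). Skp2, the F-box protein that marks p27 for degradation, had a WT change of -0.40 that did not pass. Pim3 fell by 1.203 and Pim1 rose by 0.78 in WT cells, both kinases that phosphorylate p21 and p27. The lists were described by these counts and medians only.

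The genes most like each member over the 4 group means were found by the root mean square log2 difference after centring each gene on its own mean. The nearest to Cdkn1b was Map1lc3a at 0.04, to Gadd45b C1qtnf12 at 0.02, to Gadd45a Mlec at 0.04 and to Cdk6 Cluap1 at 0.02. For Cdk4 it was Gpr89 at 0.01, for Ccnd2, on its representing probe set, Eri3 at 0.01, and for Ccnd3 Pet100 at 0.01. The nearest were Ccdc66 at 0.02 to Cdkn2c, Clock at 0.03 to Cdkn1a and Zfp938 at 0.02 to Gadd45g.

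B cell markers summed to 8856 and 7867 in KO db-cAMP cells and 8835 and 9649 in KO vehicle cells, and to 6190 and 5634 in WT db-cAMP cells against 10300.3 and 11579 in WT vehicle cells. In WT cells this sum was therefore lower with db-cAMP, as were Ccnd2, Cdk4 and Cdk6, and it was nearly all Ighm (4563 to 10767 on the 8 arrays). Of the other B cell markers Ms4a1 was at 145 to 318, Fcer2a at 124 to 235, Cd79b at 44.3 to 194, Cd79a at 7.57 to 54.7 and Pax5 at 18.9 to 90.5. Cd79b ran against Ighm in WT cells, at 170 and 194 with db-cAMP against 150 and 131 with vehicle, and Ms4a1 overlapped, at 215 and 318 with db-cAMP against 233 and 244 with vehicle. The CD8 markers summed to 276 and 270 in KO db-cAMP cells, 290 and 335 in KO vehicle cells, 367 and 433 in WT db-cAMP cells and 499 and 516 in WT vehicle cells. The lower KO sums came from Cd8b1, at 139 to 205 on the KO arrays and 256 to 367 on the WT arrays. Cd8a was at 110 to 150 on the 8 arrays, and its KO minus WT difference was not called under vehicle (limma adjusted p = 0.743) or db-cAMP (0.948). Natural killer markers summed to 1047 and 1030 in KO db-cAMP cells, 598 and 448 in KO vehicle cells, 902 and 902 in WT db-cAMP cells and 592 and 476 in WT vehicle cells, higher with db-cAMP in both genotypes. Most of this sum was Klrd1. Klrd1 read 931 and 928 in KO db-cAMP cells against 436 and 379 in KO vehicle cells. In WT cells it read 760 and 811 with db-cAMP against 509 and 379 with vehicle. Klrk1 overlapped in KO cells, at 88.2 and 84.1 with db-cAMP against 125 and 48.1 with vehicle. In WT cells Klrk1 was higher with db-cAMP, at 106 and 71.8 against 49.7 and 39.2. Ncr1 (4.57 to 35.7) and Klra8 (1.42 to 28.7) were dim. The part of these cells in the results was not tested.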

How the data were processed

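RNA of 8 samples was hybridised to Affymetrix mouse arrays, 1 array a sample. The deposited table holds linear signal intensities, made by the authors with MAS5 per the submitters' processing notes, with no version given in these sources. Per the values, each array had been scaled to a common trimmed mean. The number of arrays limits the precision. Of 45101 probe sets, 34945 carry 1 gene symbol, 932 several, 9160 none and 64 are controls; 34741 of the named ones have an Entrez ID in the RefSeq table (GRCm38.p6). Symbols are those of the platform annotation.

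From the deposited intensities log2(signal + 5.48) was computed, the offset being the 10th percentile, which understates the change of dim genes. A gene was represented by its brightest probe set, by mean log2 signal. Genes above their array's median on at least 2 arrays were tested: 12091, with 6102 set aside; all 26 probe sets of the 10 genes passed. limma 3.58.1 in R 4.3.3 was run with 1 term per group and a trended variance, on 4 residual degrees of freedom (median prior 9), with Benjamini-Hochberg adjustment. Plots used matplotlib 3.10.9 in Python 3.11.15. In simulated data for db-cAMP in WT cells, 200 of 12091 genes were changed in each run. There 48% of 1.5-fold, 62.8% of 2-fold and 81.2% of 4-fold changes were recovered, with 5.77% false calls. In the measured WT comparison 4233 genes were called. The adjustment depends on how many genes change, so these rates do not give the recovery in that comparison.

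The genes, lists and tests were chosen with earlier results of these data known. The E-box was added after the promoter sequences had been read. Genes named outside the 10 were taken from the up to 4 most changed called genes of each list in WT cells, a fixed set of cell-cycle genes and the nearest genes in pattern, unless said otherwise. Not all of them are described above. Left out of the lists were Map2k6 (log2 change 2.06 in WT cells, dim), Tfdp2 (1.25), E2f5 (-1.22), Mapkapk3 (0.80), Fbxo31 (-0.65), Orc6 (-0.52) and Stmn1 (0.35). Left out of the fixed set were Ccne1, Cdkn2b, Rbl1, E2f1 and Mdm2, not called for db-cAMP in either genotype, and Cdkn2a, which was not tested. Trp53 was not analysed here. The alternatives covered the probe set rule, offset, filter, normalization, variance model, replicate number and each array left out.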

Additional observations from a re-analysis of the deposited data

Results flagged for a closer look

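For 4 of the 10 genes the response to db-cAMP differed between KO and WT cells by the limma interaction term, which 11.8% of all genes tested also passed. Cdkn1b had a difference of -1.09 ± 0.18 on the log2 scale (KO change minus WT change, SE; adjusted p = 0.0015), with a rise of 0.84 in KO cells and 1.93 in WT cells. Gadd45b had -0.668 ± 0.107 (adjusted p = 0.00131), with rises of 0.56 in KO cells and 1.23 in WT cells. Ccnd2 had 0.523 ± 0.094 (adjusted p = 0.00258), with a change of -0.03 in KO cells and -0.55 in WT cells, and Cdk4 0.455 ± 0.111 (adjusted p = 0.0169), with -0.31 in KO cells and -0.76 in WT cells. The Cdk4 probe set 1422440_at did not pass, at 0.371 (limma adjusted p = 0.103 over the probe sets). All 4 calls were lost without the variance trend (adjusted p 0.055 to 0.154), and that of Cdk4 was also lost without KO db-cAMP array 1, KO db-cAMP array 2, KO vehicle array 1 or WT vehicle array 2 (0.0503 to 0.0661).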

How the results depend on the processing

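Of 990 recomputed values of the 10 genes, 929 kept their side of the threshold, among them 35 that changed sign with no call either way. With the direction unchanged, 47 lost a call and 11 gained one. The last 3 changed sign and were called in the main or the alternative setting but not in both. Ccnd2 in KO against WT under vehicle lost its call, at 0.093 as the mean of probe sets and 0.094 after quantile normalization, where another probe set stands for the gene. Ccnd3 in KO against WT under db-cAMP gained a call, at 0.93 as the mean of probe sets, and was at -0.06 in the main setting. The main counts of called genes were 1013 for db-cAMP in KO cells, 4233 for db-cAMP in WT cells, 1311 for KO against WT under vehicle, 3529 under db-cAMP and 1425 for the interaction. Without the variance trend they were 188 for db-cAMP in KO cells, 251 for KO against WT under vehicle and 261 for the interaction. As the mean of probe sets they were 458 for db-cAMP in KO cells, 755 for KO against WT under vehicle, 2259 under db-cAMP and 639 for the interaction. With every probe set as a feature they were 6890 for db-cAMP in WT cells, 2733 for KO against WT under vehicle and 6431 under db-cAMP, over more features. Leaving out 1 array gave 446 to 1089 for db-cAMP in KO cells, 617 to 1391 for KO against WT under vehicle and 891 to 1336 for the interaction. With the replicate block the counts were 935 for db-cAMP in KO cells, 4184 in WT cells, 1250 for KO against WT under vehicle, 3485 under db-cAMP and 1373 for the interaction, with no change of call among the 10 genes. Deviations of same-numbered arrays from their group means correlated at -0.02 to 0.021. Such values cannot tell whether these arrays share an animal, a culture or a day. At an equal 75th percentile, which puts the median of all genes in KO against WT under db-cAMP at -0.127 (main setting -0.005), the higher share of calls was 25.2% (46.7% in the main setting) under vehicle, 37.7% (54.6%) under db-cAMP and 43.1% (56.1%) for db-cAMP in KO cells. The cause of these shifts was not tested. With 2 arrays a group, changes under 2-fold can be missed, as 48% of the 1.5-fold changes were recovered in the simulated data. How often this happened in the measured comparisons is not known, and Ccnd2, Cdk4 and Cdkn2c were called in WT cells at changes under 2-fold. Dim probe sets such as the second of Cdkn1b and the dimmest of Gadd45b carry little weight.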
